A study of Mus musculus with 14 samples.

Results

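The host transcripts considered here carry canonical miRNA stem-loops that lie outside the large miRNA clusters of embryonic stem cells (ESCs). They are *Dleu2* with *Mir16-1*, *Aopep* (also named *2010111I01Rik*) with *Mir27b* and *Mir24-1*, *Mir22hg* with *Mir22*, and *Mir142hg* with *Mir142*. They were picked by name, 10 names in all, from the genes listed at each pile-up site and from the gene names of the RNA-seq table. This gave 6 of 3919 sites in the Drosha table, 5 of 4666 sites in the Dicer table, 5 of the 2595 sites that both tables share, and 6 of 22376 RNA-seq rows. Taking every site inside the annotated bounds of these genes gave the same sites.

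Degradome-seq captures polyA RNA that carries a 5′ monophosphate, the end that an RNase III enzyme such as Drosha leaves, and the first base of a read marks that end. It was performed on mouse ESCs grown on inactivated embryonic fibroblasts. In the Drosha line, control cells were untreated Drosha fl/fl Gt(ROSA)26SorCreERT2 cells, and Drosha-deficient cells were the same cells given 100 nM 4-hydroxytamoxifen (4OHT) for 72 h and then cultured without it for 48 h. In the Dicer line, Dicerfl/fl cells were transduced with a retrovirus for GFP (control) or GFP-Cre (Dicer-deficient), sorted for GFP on day 3 and cultured for 2 more days. Each group had 2 Degradome-seq libraries, and RNA-seq covered 3 control and 3 Drosha-deficient libraries of the Drosha line. Exposure to 4OHT and loss of Drosha cannot be told apart, since no control received the drug. The labels give replicate numbers without saying whether they mark separate cultures, so the tests measure the spread between these libraries, which may be technical.

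A primary miRNA transcript folds into a stem-loop that Drosha, together with Dgcr8, cuts on both arms in the nucleus, releasing the pre-miRNA. Dicer then removes the loop in the cytoplasm. The downstream remnant of the host transcript keeps its polyA tail and starts at the cut on the 3′ arm, so that reads of this remnant stack at a single position, the pile-up site. miR-16 belongs to the miR-15/16 family, known for repressing cell cycle regulators and *Bcl2*. miR-24 and miR-27b come from the *Mir23b* cluster inside *Aopep*, which encodes an aminopeptidase, miR-22 has been studied mostly in heart and blood cells, and miR-142 is a marker of blood cells.

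The 5 stem-loops are given here because the Degradome-seq values of the members were measured at their 3′ ends. The sequences are those of the study's stem-loop list and were identical to the GRCm38 reference at the coordinates given. Capitals mark the mature miRNAs of RefSeq, and each sequence ends 15 bases into the downstream fragment, whose first base is the pile-up site.
Mir16-1, chr14:61631878-61631972, minus strand: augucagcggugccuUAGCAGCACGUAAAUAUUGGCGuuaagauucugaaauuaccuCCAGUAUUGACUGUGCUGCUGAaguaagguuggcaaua
Mir27b, chr13:63300703-63300795, plus strand: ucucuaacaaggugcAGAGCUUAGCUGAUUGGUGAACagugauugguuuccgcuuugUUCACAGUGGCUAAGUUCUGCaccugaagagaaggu
Mir24-1, chr13:63301198-63301287, plus strand: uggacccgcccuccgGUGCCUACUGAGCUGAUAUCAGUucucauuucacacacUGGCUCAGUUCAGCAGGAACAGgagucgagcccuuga
Mir22, chr11:75463719-75463808, plus strand: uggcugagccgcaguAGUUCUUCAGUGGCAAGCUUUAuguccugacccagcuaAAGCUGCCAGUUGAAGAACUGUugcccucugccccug
Mir142, chr11:87756852-87756940, plus strand: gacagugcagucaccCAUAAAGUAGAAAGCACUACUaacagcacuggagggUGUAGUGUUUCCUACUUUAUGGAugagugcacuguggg

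The mature miRNA most often studied from each stem-loop follows, with the seed (bases 2 to 8) in capitals. These 5 seeds differ from one another, so the stem-loops share no seed family.
miR-16-5p: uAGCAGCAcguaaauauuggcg
miR-27b-3p: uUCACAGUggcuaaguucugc
miR-24-3p: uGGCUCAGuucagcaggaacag
miR-22-3p: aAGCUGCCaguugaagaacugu
miR-142a-3p: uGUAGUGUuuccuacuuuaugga

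In the RefSeq table the seed of miR-16-5p occurs in 10 other miRNA genes, among them *Mir15a*, *Mir15b*, *Mir16-2*, *Mir195a* and *Mir322*. That of miR-24-3p occurs in 5 others, including *Mir24-2*, and that of miR-27b-3p in 1 other, *Mir27a*. No gene that shares one of these seeds had a pile-up site in either table. The mature miR-16-5p and miR-24-3p are each made from a pair of genes, whereas the first 30 bases of the downstream fragment had 1 exact copy in the genome at each of the 5 sites, so the reads of that stretch belong to *Mir16-1* and *Mir24-1* alone.

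The pile-up sites lay at the ends of the 3p miRNAs. At *Mir22*, *Mir142*, *Mir27b* and *Mir24-1* the site was the base directly after the last base of the 3p miRNA (distance 1), and at *Mir16-1* it was 1 base further on (distance 2). A weaker second site of *Mir24-1*, present in the Drosha table only, lay at distance 3. Of 63 sites in other miRNA hairpins with both arms in RefSeq, 41 lay at distance 1, 7 at distance 2 and 5 at distance 3, and 59 (93.7%) fell between 0 and 3. The study trained its classifier for pile-up sites on miRNA cleavage sites, so this position is partly how the sites were found.

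**Figure D1:**
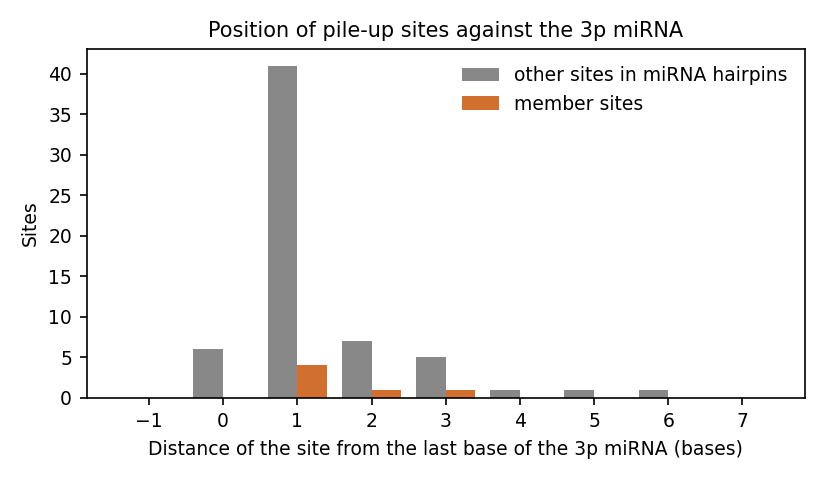
Number of pile-up sites (vertical axis) at each distance in bases from the last base of the 3p miRNA (horizontal axis) for the member sites and for sites in other miRNA hairpins. Of the 6 member sites 4 lie at distance 1, as do 41 of 63 other sites, and 1 other site lies outside the plotted range.

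The stretch below the cut differed between the stem-loops. The first 30 bases of the downstream fragment are shown because a CNNC motif 16 to 18 bases below the cut is a known feature of miRNA primary transcripts, bound by Srsf3, and capitals mark it where the transcribed strand holds it.
Mir22, chr11:75463794-75463823, plus strand: tgccctctgcccctggCTTCgtggaggaag
Mir142, chr11:87756926-87756955, plus strand: tgagtgcactgtgggCTTCggagaccacgc
Mir16-1, chr14:61631863-61631892, minus strand: gtaaggttggcaatactCTACaactgtaat
Mir27b, chr13:63300781-63300810, plus strand: acctgaagagaaggtgagatggggacagtt
Mir24-1, chr13:63301273-63301302, plus strand: gagtcgagcccttgagcaaaaagcctaccc

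CNNC began 17 bases below the cut at *Mir22*, 16 below at *Mir142* and 18 below at *Mir16-1*, and did not begin at any of these 3 positions at either *Aopep* stem-loop. The letters of CNNC do occur further down in the *Mir24-1* line, outside the positions searched. Over the 65 miRNA stem-loops of the study's list whose 3′ end is the pile-up site, 64.6% held it. The other motifs sought were UG 14 bases before the 5′ cut, present at *Mir16-1* alone among the 5 and at 30.8% of the 65, and UGU or GUG 21 to 26 bases above that cut, present at *Mir22* (from base 23) and *Mir27b* (from base 24) and at 46.2% of the 65. *Mir24-1* held none of the 3 motifs at the positions searched, as did 9.2% of the 65 stem-loops. The *Mir22* and *Mir24-1* stem-loops as printed do begin with UG, just outside the position searched. Only the transcribed strand was searched.

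Folded with RNAfold without lonely pairs, the *Mir24-1* stem-loop was the weakest of the 5 and the second weakest of the 68 miRNA stem-loops in the list. Its minimum free energy was −28.9 kcal/mol, with 60.0% of its bases paired, against a median of −41.4 kcal/mol and 72.2% over the 68. *Mir142* (−46.2 kcal/mol, 76.4% paired) and *Mir27b* (−45.7 kcal/mol, 77.4% paired) were more stable than the lower quartile of energies, *Mir22* was near the median (−40.6 kcal/mol, 75.6% paired), and *Mir16-1* lay just past the upper quartile (−36.2 kcal/mol, 69.5% paired). All 5 predicted cuts left a 3′ overhang of 2 bases. The study kept only stem-loops with an overhang near that length, so this is no separate result. Allowing lonely pairs changed no overhang and moved the energy of *Mir16-1* most, to −37.7 kcal/mol.

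The arrangement of host and stem-loop differs between the members in GENCODE vM21, which uses the build of the files. *Dleu2* lies on the minus strand of chromosome 14 from 61602839 to 61682373, and its *Mir16-1* site at 61631892 is 29053 bases before the 3′ end of the gene. It is in an exon of 1 of the 15 *Dleu2* transcripts and in an intron of the other transcripts that span it, 9 spanning in all. *Aopep* is a protein-coding gene on the plus strand of chromosome 13 from 62964893 to 63326096, with 28 annotated transcripts. Its sites at *Mir27b* (63300781) and *Mir24-1* (63301273) are in an exon of 1 of 9 and of 3 of 10 spanning transcripts, and 25315 and 24823 bases before the 3′ end of the gene. The *Mir22* site, on the plus strand of chromosome 11 at 75463794, is in an exon of both *Mir22hg* transcripts, 2882 bases before the gene's end, where the deposited table also names *Tlcd2*. The *Mir142* site, on the same strand at 87756926, is in the intron of the single *Mir142hg* transcript, 344 bases before its end, and the table names no host there. *Mir15a* and *Mir23b* lie in *Dleu2* and *Aopep* on the same strand and had no pile-up site. *Mir3074-1* and *Mir142b*, annotated on the strand opposite *Mir24-1* and *Mir142*, had none either. *Mir15a* and *Mir23b* lie upstream of member stem-loops. A molecule also cut at the downstream stem-loop keeps its polyA tail only past that cut. Their missing sites therefore do not show that *Mir15a* and *Mir23b* were not cut.

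Values are given in RPM, the reads that start at a site scaled to the mapped reads of the library, for library 1 and library 2 of each group. One read was worth between 0.0289 and 0.0349 RPM, and 3 reads, taken as the floor of detection for counting error only, between 0.0868 and 0.105 RPM. The sites of the Drosha table together took 12.6% and 12.4% of mapped reads in control and 8.93% and 8.69% in Drosha-deficient libraries. Those of the Dicer table took 30.1% and 29.2% in control and 23.1% and 23.4% in Dicer-deficient libraries. Multi-mapped reads were 37.6% and 41.8% of mapped reads in Drosha-line control libraries and 26.9% and 28.7% in Drosha-deficient ones. In the Dicer line they were 38.4% and 38.8% in control and 31.7% and 33.5% in deficient libraries. PCR reads without molecular identifiers are not independent molecules. By its methods the study chose sites from the way reads stack in control libraries, so a value in control cells was partly needed for a site to be listed. The smallest nonzero control value listed was 1 read. The deleted genes *Drosha* and *Dicer1* have no pile-up site. The RNA-seq table lists both, but beside a mean over all libraries it holds only the authors' own comparison, which was not used, so the deletions were not checked here.

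*Mir24-1* had the most reads of the members in both lines. In the control cells of the Drosha line it had 48.4 and 61.1 RPM (1389 and 1787 reads) and in those of the Dicer line 31.6 and 27.4 RPM, which placed its mean 7th of 89 and 12th of 76 sites that name a miRNA. *Mir142* came next by mean in both lines, but its control libraries in the Drosha line, 18.3 and 69.6 RPM, enclosed both values of *Mir24-1* and both of *Mir16-1* (22.1 and 24.5 RPM), so its place in the order was not separated from the replicate spread. *Mir24-1* lay above *Mir16-1* in both control libraries without overlap. In the Dicer line the control values did not overlap, with 20.1 and 18.3 RPM at *Mir142* and 10.9 and 15.8 RPM at *Mir16-1*. *Mir27b* was lower at 7.22 and 6.02 RPM in the Drosha line. *Mir22* was lowest there at 1.19 and 3.18 RPM, while in the Dicer line *Mir22* (3.91 and 4.05 RPM) lay within the range of *Mir27b* (4.66 and 2.89 RPM). All of these levels are read starts at 1 base and need no correction for length.

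**Figure D2:**
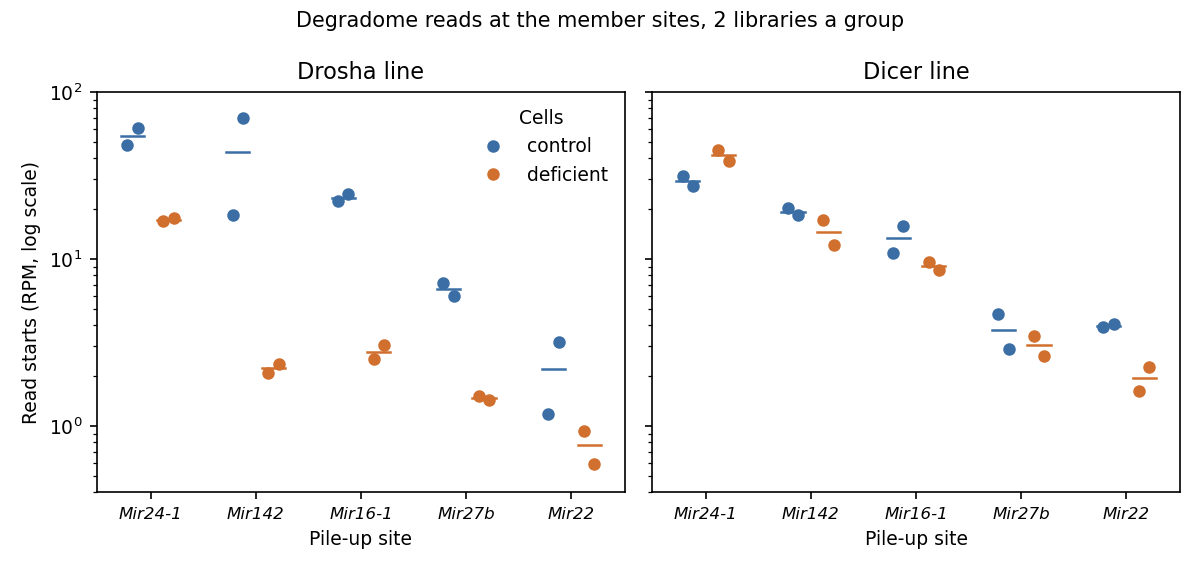
Read starts at the 5 main member sites in RPM on a log axis, in the Drosha line (left) and the Dicer line (right), with 1 point per library and a line at the mean of 2 libraries. In the Drosha line both control libraries lie above both deficient libraries at every site shown, as at 59.9% of all sites of that table. In the Dicer line the *Mir24-1* site lies higher in deficient cells (44.8 and 38.9 RPM) than in control cells (31.6 and 27.4 RPM). The same order held at 16.8% of all sites there.

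The first comparison asked which sites depend on Drosha. *Mir142*, *Mir16-1*, *Mir27b* and *Mir24-1* were called decreased in Drosha-deficient cells by limma, with log2 fold changes from −3.95 to −1.66, and *Mir22* was not. A call required an FDR (the Benjamini-Hochberg adjusted p over all sites of the table) under 0.05 and a log2 fold change past 1.5 in size, on the log2(RPM + 0.1) scale, which understates changes of low sites. Of all 3919 sites, 37.6% were called decreased and 9.57% increased, and the median site changed by −0.93. By the study's methods sites were listed from their stacking in control libraries, a choice that favours decreases over increases, at members as at other sites. Of 83 other sites that name a miRNA, 58 were called decreased and 0 increased, with a median of −1.98, against 4 of the 6 member sites with a median of −1.88. Fewer cells making a transcript and less of it per cell cannot be told apart in these bulk samples.

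At the *Mir142* site, in the intron of the lincRNA *Mir142hg*, Drosha-deficient libraries had 2.06 and 2.36 RPM (64 and 68 reads), against 18.3 and 69.6 RPM (524 and 2035 reads) in control libraries. The groups were far apart, and the second control library was 3.81-fold above the first. A difference between the control libraries as large as this was exceeded at 0.766% of all sites. The log2 fold change was −3.95 ± 0.47 (SE, FDR = 1.31e-05 by limma), the lowest of the 89 miRNA sites in the table, and 0.281% of all sites fell further. It was −2.99 without the high control library and −4.92 without the other one. By mean level the site moved from 9th to 31st of the 89 miRNA sites.

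At *Mir16-1*, whose seed family is named above, Drosha-deficient libraries had 2.52 and 3.06 RPM and control libraries 22.1 and 24.5 RPM. Both groups were tight, with libraries 1.11-fold and 1.22-fold apart. The log2 fold change was −3.02 ± 0.35 (SE, FDR = 1.11e-05 by limma), 8.13-fold lower, and 5th lowest of the 89 miRNA sites. Leaving out single libraries moved it between −3.16 and −2.89.

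Both sites in *Aopep* were called decreased. At *Mir27b* the values were 7.22 and 6.02 RPM in control and 1.52 and 1.42 RPM in Drosha-deficient libraries, which is a log2 fold change of −2.09 ± 0.39 (SE, FDR = 0.00027 by limma). At *Mir24-1*, 492 bases downstream on the same transcript strand, they were 48.4 and 61.1 RPM in control and 16.8 and 17.5 RPM in Drosha-deficient libraries, which is a log2 fold change of −1.66 ± 0.32 (SE, FDR = 0.000407 by limma). Without the second control library *Mir24-1* had −1.49 and was no longer past the threshold. The groups did not overlap at either site, yet both changes lay well inside those of the table, since 22.6% and 33.8% of all sites fell further. In Drosha-deficient cells *Mir24-1* kept 522 and 504 reads and ranked 9th of 89 miRNA sites by mean level. The weaker site of *Mir24-1* had 9 and 8 reads in control and 8 and 2 reads in Drosha-deficient libraries, the last of these under the floor, and was not called (−0.67 ± 0.71, SE, FDR = 0.424 by limma).

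At *Mir22*, in the exons of its host, control libraries had 1.19 and 3.18 RPM (34 and 93 reads) and Drosha-deficient libraries 0.936 and 0.591 RPM (29 and 17 reads). The first control library was close to the first deficient one. The log2 fold change was −1.28 ± 0.52 (SE, FDR = 0.0397 by limma), which passed the FDR and not the fold threshold. A larger difference between the control libraries than the 1.35 (log2) seen here occurred at 3.67% of all sites. Without the second control library the log2 fold change was −0.60 (FDR = 0.419). With edgeR on reads recovered from the RPM values it was −1.51 (FDR = 0.0252), just past the threshold.

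Calls at both *Aopep* sites and at *Mir22* depended on the scaling of the libraries. With each library centred on the median of all its sites, the median change of all sites moved from −0.93 to −0.35 and the share of decreases among called sites from 79.7% to 60.1%. *Mir24-1* then had −1.04 (FDR = 0.00814) and *Mir27b* −1.5 (FDR = 0.00211), the latter just short of the threshold before rounding. The study applied TMM scaling to read starts at each genomic locus, whereas here TMM factors came from the listed pile-up sites alone. With edgeR and these factors the median change was −0.03, and 44.9% of called sites were decreases. *Mir24-1* then had −0.76 (FDR = 0.0521 by edgeR) and *Mir27b* −1.23 (FDR = 0.00759 by edgeR). *Mir142* (−3.46 with TMM) and *Mir16-1* stayed called under both. In the other direction, RPM of uniquely mapped reads gave *Mir22* −1.56 (FDR = 0.0137 by limma), which was called, and 1707 sites called lower. Relative to the median site of the RPM fit, the changes were −3.02 at *Mir142*, −2.09 at *Mir16-1*, −1.16 at *Mir27b*, −0.73 at *Mir24-1* and −0.35 at *Mir22*. Both control libraries lay above both deficient libraries at all 6 member sites, and at 59.9% of all sites (the opposite held at 21.2%).

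The second comparison asked the same of Dicer. No member site was called in Dicer-deficient cells, and neither was any other site, with 0.0% of 4666 sites called decreased and 0.0% called increased by limma. At an unadjusted p under 0.05 there were 459 sites, of which 242 were lower and 217 higher. edgeR on recovered reads also called 0 sites in either direction, with or without TMM scaling. None of these fits used the replicate numbers. With replicate number as a block, limma called 67 sites lower and 119 higher, none of them a member. The 0 calls therefore do not show that no site changed. With 2 libraries against 2, an exact permutation test cannot go below 0.333 for a single site.

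*Mir24-1* was higher in Dicer-deficient cells, with 44.8 and 38.9 RPM against 31.6 and 27.4 RPM in control cells. Its groups did not overlap, but the log2 fold change of 0.50 (95% interval −0.21 to 1.22, FDR = 0.57 by limma) included 0. Of all sites, 16.8% had both control libraries below both deficient libraries. *Mir27b*, on the same host, had 4.66 and 2.89 RPM in control and 3.45 and 2.63 RPM in Dicer-deficient libraries. These groups overlapped, with a log2 fold change of −0.28 (95% interval −1.30 to 0.74, FDR = 0.806 by limma).

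At 3 member sites neither Dicer-deficient library reached the control libraries, as at 27.4% of all sites. *Mir22* had the largest of these differences, with 3.91 and 4.05 RPM in control and 1.62 and 2.26 RPM in Dicer-deficient libraries. Its log2 fold change was −1.02 (95% interval −1.97 to −0.06, unadjusted p = 0.0406, FDR = 0.489 by limma), and 7.14% of all sites fell further. *Mir16-1* went from 10.9 and 15.8 RPM to 9.56 and 8.64 RPM, a log2 fold change of −0.53 (95% interval −1.37 to 0.31, FDR = 0.592 by limma). *Mir142* went from 20.1 and 18.3 RPM to 17.1 and 12.1 RPM, a log2 fold change of −0.41 (95% interval −1.22 to 0.39, FDR = 0.652 by limma), so that a fall as large as that seen without Drosha lay outside the interval. The median over the 5 members was −0.41, over 71 other miRNA sites −0.08 and over all sites −0.12.

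**Figure D3:**
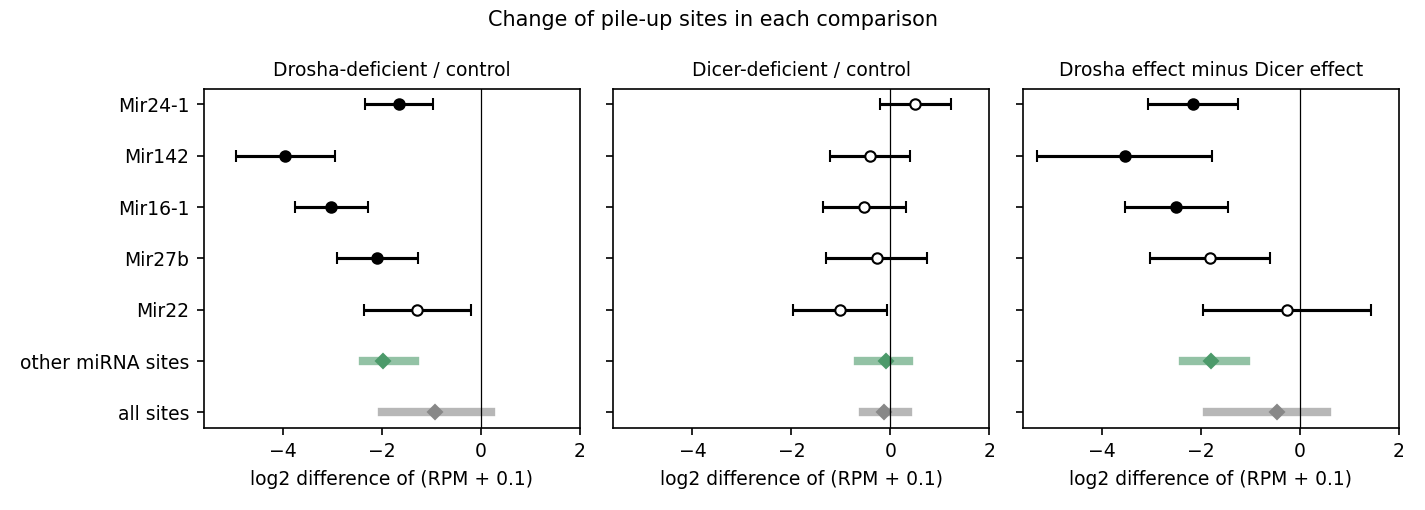
Log2 difference of RPM + 0.1 at each member site with its 95% interval (limma) for loss of Drosha, loss of Dicer and the difference between both effects. Filled points were called, and bars with diamonds give the quartiles and median of the other miRNA sites and of all sites. In the left panel *Mir142* (−3.95) and *Mir16-1* (−3.02) lie below the lower quartile of other miRNA sites (−2.39), and in the middle panel the interval of each site but *Mir22* includes 0.

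Whether the change at a site differed between the Drosha and the Dicer line was tested with an interaction term over the 2595 sites of both tables. The lines also differ in the way of deletion, the control cells and the sorting. The deleted gene cannot be told apart from these differences. The change differed between the lines at 4.78% of these sites (FDR under 0.05 by limma), and 1.7% of them were called with the lower effect in the Drosha line. *Mir142* (−3.54 ± 0.78, SE, FDR = 0.0442), *Mir16-1* (−2.50 ± 0.46, SE, FDR = 0.0293) and *Mir24-1* (−2.16 ± 0.40, SE, FDR = 0.0295) were among the latter. *Mir27b* (−1.81 ± 0.54, SE, FDR = 0.0695) was not called, and at *Mir22* the difference was −0.26 (95% interval −1.96 to 1.44, FDR = 0.817). Of 63 other miRNA sites 15 were called, all with the lower effect in the Drosha line, with a median of −1.79. The interaction calls were fragile, because with any 1 of the 4 Drosha-line libraries or the first Dicer-deficient library left out no member and no other site was called, and without the mean-variance trend the members were not called either.

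The ratio of *Mir24-1* to *Mir27b* compares the reads at both *Aopep* sites within a library, where the scaling cancels. Only fragments with a polyA tail are captured, so a molecule cut at both sites is read at *Mir24-1* alone. The counts are therefore not separate measures of each cut. In the Drosha line it was 6.71 and 10.2 in control and 11.1 and 12.3 in Drosha-deficient libraries, and in the Dicer line 6.78 and 9.51 in control and 13.0 and 14.8 in Dicer-deficient libraries. The deficient libraries were above the control libraries of their own line in both cases. The difference on the log2 scale was 0.50 in the Drosha line and 0.79 in the Dicer line (exact two-sided permutation test, n = 2 against 2, p = 0.333 in each, the smallest p possible). Counting error is wide for *Mir27b*, which had 41 to 207 reads, and the 95% interval of the ratio in the second Drosha-deficient library ran from 8.93 to 17.3.

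**Figure D4:**
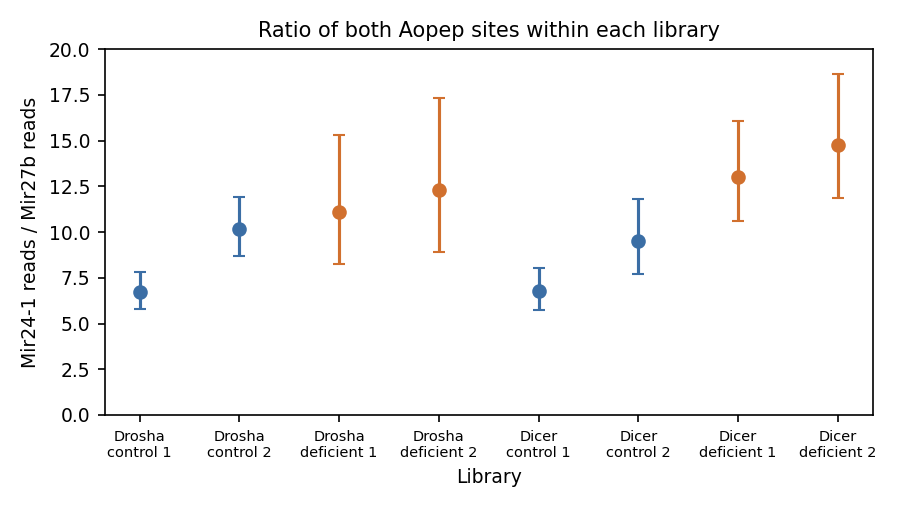
Reads at *Mir24-1* divided by reads at *Mir27b* in each of 8 libraries, with 95% intervals for counting error only. Control libraries lie between 6.71 and 10.2 and deficient libraries between 11.1 and 14.8.

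For each member the 2 sites of other genes with the most similar pattern were sought among 2540 shared sites with a mean of at least 1 RPM. The measure was the root mean square difference over 8 libraries of log2(RPM + 0.1), centred on the control mean of each line, and it is a description only. The nearest to *Mir16-1* was *Mir19b-1* in *Mir17hg* (0.14), with means of 12.0 and 1.51 RPM in control and Drosha-deficient cells and 10.3 and 7.03 RPM in control and Dicer-deficient cells, followed by *Mir671* in *Chpf2* (0.34). The nearest to *Mir27b* were *Mir9-2* (0.13) and *Cfap298* (0.18). *Mir142* was closest to *Mir124a-1* (0.61) and *Krt42* (0.64), the largest distances of the 5, and its control libraries differed most. *Mir24-1* was nearest to *Nol4l* (0.14) and *Srrm1* (0.23) and *Mir22* to *Hnrnpab* (0.36) and *Rab26os* (0.36), none of which names a miRNA.

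The host transcripts differed in their level in the RNA-seq of the Drosha line, for which the table gives the authors' mean log2 CPM over all 6 libraries, with no value for either group. *Aopep* had 6.31 and *Dleu2* 6.14, above 85.2% and 83.3% of the 22376 genes, while *Mir142hg* (2.33) and *Mir22hg* (2.12) were close to the median gene (2.34). Per kb of exon the order of levels changed, with log2 CPM per kb of 4.23 for *Mir142hg*, whose exons span 269 bases, 2.81 for *Aopep*, 2.63 for *Dleu2* and 1.17 for *Mir22hg*. Of the miRNA genes, *Mir142* had a log2 CPM of 0.75 and *Mir16-1* of −2.91, and the other 3 have no row. No spread can be given for these levels, and the counter and its use of strand are not given in the sources used here, so reads of overlapping genes cannot be told apart.

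Relatives of the members were also looked up. Of 18 names of the wider miR-15/16, miR-23/24/27, miR-22 and miR-142 families and their host *Smc4*, 8 have an RNA-seq row, from −3.15 (*Mir16-2*) to 8.50 (*Smc4*) log2 CPM. *Smc4*, which carries *Mir15b* and *Mir16-2*, had 2 sites in the Dicer table, neither naming a miRNA. The higher of these, on chromosome 3 at 69030405, had 14.0 and 17.2 RPM in control and 9.97 and 8.64 RPM in Dicer-deficient libraries (log2 fold change −0.73, FDR = 0.51 by limma), and the other, at 69031414, had −0.37 (FDR = 0.699 by limma). Of 16 other hosts of miRNAs 15 have a row, from −1.91 to 9.43 log2 CPM with a median of 6.29, so *Mir142hg* and *Mir22hg* were below the median of these hosts. All 14 genes of miRNA processing looked up have a row, from 1.88 to 9.62.

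Markers of the cell types were looked up in the same table. All 10 pluripotency markers had a row, from 5.96 to 10.2 log2 CPM and thus above the median gene. The 10 fibroblast markers ranged from −2.30 (*Twist2*) to 6.60 (*Col1a1*), and their source, feeder cells or ESCs, was not tested. Of 10 blood cell markers, looked up because miR-142 marks blood cells, 9 have a row, from −2.76 (*Tyrobp*) to 6.54 (*Laptm5*) with a median of −1.25, and *Ptprc* has none. Whether these markers moved with the groups was not tested, as no level per library is given.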

How the data were processed

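Degradome-seq (8 libraries, 2 per group) and RNA-seq (6 libraries) of mouse ESCs were analysed. For Degradome-seq the authors used Trimmomatic 0.38.0 and STAR (GRCm38), tallied read starts per base, kept pile-up sites by a trained classifier and deposited the RPM of each library. The deposited tables also hold log2 fold changes, scores (F), p-values and FDR of the authors' edgeR 3.26.1 comparisons, which were not used. For RNA-seq the mean log2 CPM over 6 libraries, as deposited by the authors, was used. Multiplied by the mapped reads the study lists, 100% of RPM values were whole reads within 0.002, or within a small relative error at high counts.

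Groups were compared with limma 3.58.1 (R 4.3.3) on log2(RPM + 0.1), with a mean-variance trend and Benjamini-Hochberg FDR over all sites. edgeR 4.0.16 on recovered reads was an alternative. Tested on simulated data with 200 sites changed by 3 (log2), limma recovered 80.5% in the Drosha and 51.5% in the Dicer table. It called 2 and 4 unchanged sites, and its simulated spread was that observed at each site. edgeR recovered 98% in both on other simulated counts, whose spread setting was the same for all sites and not taken from the data. These shares therefore do not compare the methods. Annotation was GENCODE vM21, mature miRNAs RefSeq (GRCm38), and folding RNAfold 2.7.2. All 5 member miRNAs matched RefSeq by symbol. Named were all member sites and rows, those of a family list, and the 2 sites most like each member. Members and lists were chosen with earlier results of these data known.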

Additional observations from a re-analysis of the deposited data

Results flagged for a closer look

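The change at 3 member sites differed between the Drosha and the Dicer line by the interaction test (limma, FDR under 0.05 over 2595 shared sites). Of these shared sites 4.78% were called, and 1.7% with the lower effect in the Drosha line, as were 15 of 63 other miRNA sites. The calls were fragile. Without the mean-variance trend no member was called, and the calls also depended on single libraries. The deleted gene cannot be told apart from the other differences between the lines. The Drosha effect minus the Dicer effect was −3.54 at *Mir142*, −2.50 at *Mir16-1* and −2.16 at *Mir24-1* on the log2 scale. At *Mir142* and *Mir16-1* the mean was lower in deficient cells of both lines, and at *Mir24-1* it was lower without Drosha (−1.66) and higher without Dicer (0.50). The 95% interval of the change without Dicer included 0 at all 3 sites. The control libraries of *Mir142* in the Drosha line, 18.3 and 69.6 RPM, were far apart, and its difference was −2.58 without the second of these. Groups of 2 libraries are too small for a test of single outlying libraries.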

How the results depend on the processing

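In the Drosha comparison *Mir142* and *Mir16-1* were called under all 14 alternatives each, and 2 member sites were called in place of 4 with libraries centred on their median or with edgeR and TMM. Over all sites, 1473 were called lower and 375 higher. Centring gave 910 and 604. edgeR with TMM factors from the listed sites alone, added here after seeing the data, gave 636 and 780. A pseudocount of 0.5 or 1 RPM gave 953 or 548 lower. Leaving out single libraries gave 907 (without the first control library) to 1519 lower. With edgeR and TMM the second *Mir24-1* site had 0.07. In the Dicer comparison no member was called under any alternative. Over all sites, in place of 0 lower and 0 higher, leaving out single libraries gave 0 to 1 lower and 0 to 13 higher (both highest without the second Dicer-deficient library), and *Mir27b* lay between −0.61 and 0.06 (without the first control library).

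The interaction called 3 members, 44 sites lower and 80 higher. Without the trend it called 0 members, with 2 sites lower and 1 higher. RPM of uniquely mapped reads gave 119 lower, and centring gave 125 lower and 289 higher, with *Mir22* at 0.20. Leaving out single libraries gave 0 to 4 members, 0 to 726 lower and 0 to 243 higher (the highest each without the first Dicer control library), and *Mir22* lay between −0.94 and 0.41, above 0 without the second control or second deficient library of the Drosha line. A lone library left in a group was assumed to vary like the others.

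With a replicate block the Dicer comparison called 67 sites lower and 119 higher and the interaction 934 lower and 386 higher. Replicate differences of the 2 groups correlated across sites by 0.13 in the Drosha and 0.53 in the Dicer line. With 2 numbers a line, nothing in the labels shows that they mark pairs. The block called no member in the Dicer comparison, 4 as before in the Drosha comparison, and 4 in place of 3 by the interaction, where *Mir27b* (−1.81) passed with an FDR of 0.00115 by limma. Finding members by annotated bounds gave the same 6 and 5 sites, and folding with lonely pairs moved no energy by 2 kcal/mol or more.

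Reads limit the second *Mir24-1* site (2 to 9 reads) and *Mir22* (17 to 93 reads in the Drosha line), and 2 libraries a group limit all tests. The cause of these changes was not tested.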
